A study of Mus musculus with 18 samples.

Results

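The genes described here are 35 imprinted genes of the mouse, chosen by name from a list and found by gene symbol in the tables, which hold 55401 gene IDs each. They lie at 18 loci on 9 chromosomes. By textbook knowledge 21 are expressed from the paternal allele and 12 from the maternal allele, and 2 (Gnas and Trappc9) have mixed imprinting that depends on promoter or tissue. Of the 35, 33 passed the filter on low counts. Kcnq1, a potassium channel subunit, and Slc22a18, a transporter family gene, did not, and reached at most 0.222 and 0.39 CPM (counts per 1000000 of the scaled library) in any library.

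The cells were RHKI, a line of mouse embryonic stem cells made from E14Tg2a with a knock-in of HA-tagged Rnaseh1, and every group carries this knock-in. Dox groups received doxycycline at 500 ng/ml for 48 h before gastruloid differentiation. The other groups are labelled as control. Cells were grown in 2i/LIF medium, which holds LIF, serum and the inhibitors CHIR-99021 and PD0325901. Sampling was on day 0 before differentiation and after 72 h (day 3) and 120 h (day 5) of it, with 3 libraries per group and day. The labels do not say whether doxycycline was continued after day 0. All libraries come from 1 line, and nothing in the labels says that replicates were separate cultures, so each p-value speaks of the spread among these libraries, which may be technical.

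Imprinted genes are transcribed mainly from one parental allele, because DNA methylation laid down in the egg or sperm marks a control region of the locus, and this mark must be kept while the early embryo loses methylation elsewhere. Many genes expressed from the father promote growth of the fetus and placenta, and many expressed from the mother restrain it. RNase H1 cuts the RNA strand of RNA-DNA hybrids, and long noncoding RNAs lie in several of these loci. The tables give 1 value per gene, so parental alleles cannot be told apart, and in bulk samples fewer cells of a type and less RNA per cell cannot be told apart either.

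The induction was present in every day 0 Dox library. Rnaseh1 was measured at 172, 137 and 149 CPM in day 0 Dox cells, against 25.8, 30.3 and 28.7 CPM in day 0 control cells. It was still 57.1 ± 3.35 CPM in day 5 Dox cells, against 19.7 ± 0.372 CPM in day 5 control cells (SD, n = 3 each). Library totals ranged from 25748897 to 38128366 counts. Day 0 Dox replicate 2 held 4.761% of its counts in an rRNA gene, against 0.144 to 0.483% in the other 17 libraries. The stem cell label was checked on 7 naive pluripotency markers, whose summed level was 1662 to 1839 TPM (transcripts per 1000000, scaled by length) in day 0 Dox libraries and 1615 to 1821 TPM in day 0 control libraries.

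For members on which the Dox comparison turns, the promoter windows in RefSeq (build GRCm38.p6, 250 bases before to 50 after the start, printed along the gene's strand) are shown here. Capitals mark the letters TGCCGC or their reverse complement GCGGCA. In its methylated form this hexamer is bound by the zinc finger protein ZFP57, which protects imprints. The windows shown are those of Grb10, which had the most negative fold change among the called members at day 5, Nnat, which was higher at day 5, and Mest, which was lower at day 0. Grb10 has a pair of windows: the first, at chr11:12037371-12037670 on the minus strand, has 45 CpG and the other, at chr11:12027922-12028221 on the minus strand, has 9. The Nnat window is chr2:157559828-157560127 on the plus strand, and the Mest window shown is chr6:30737800-30738099 on the plus strand, each with 17 CpG. Mest has 3 windows in the table: one starts 3 bases further on and also holds the hexamer 2 times, and one at chr6:30733256-30733555, with 8 CpG, does not hold it.
Grb10, first window: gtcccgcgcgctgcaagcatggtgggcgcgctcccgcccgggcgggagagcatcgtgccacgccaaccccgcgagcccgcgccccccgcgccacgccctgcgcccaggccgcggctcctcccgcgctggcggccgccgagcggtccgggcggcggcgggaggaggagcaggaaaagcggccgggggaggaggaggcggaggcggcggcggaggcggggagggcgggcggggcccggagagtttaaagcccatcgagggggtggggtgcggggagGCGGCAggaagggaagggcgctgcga
Grb10, other window: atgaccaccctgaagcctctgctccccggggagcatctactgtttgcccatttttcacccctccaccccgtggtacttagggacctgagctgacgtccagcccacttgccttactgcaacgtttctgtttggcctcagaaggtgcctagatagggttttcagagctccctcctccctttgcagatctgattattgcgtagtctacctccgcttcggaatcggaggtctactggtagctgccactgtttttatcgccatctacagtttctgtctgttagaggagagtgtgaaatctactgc
Nnat: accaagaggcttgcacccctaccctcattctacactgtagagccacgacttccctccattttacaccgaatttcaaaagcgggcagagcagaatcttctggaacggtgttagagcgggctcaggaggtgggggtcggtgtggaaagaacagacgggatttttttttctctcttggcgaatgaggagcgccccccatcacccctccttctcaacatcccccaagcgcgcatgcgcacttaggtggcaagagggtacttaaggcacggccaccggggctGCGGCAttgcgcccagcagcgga
Mest: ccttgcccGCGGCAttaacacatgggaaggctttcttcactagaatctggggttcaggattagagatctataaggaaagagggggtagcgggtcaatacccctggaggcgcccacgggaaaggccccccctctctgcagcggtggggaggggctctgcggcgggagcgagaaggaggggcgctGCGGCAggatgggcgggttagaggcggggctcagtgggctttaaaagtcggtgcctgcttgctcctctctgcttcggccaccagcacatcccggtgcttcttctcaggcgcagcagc
The Mest window shown holds the hexamer 2 times, the first Grb10 window and the Nnat window hold it once, and the other Grb10 window does not hold it. Over the 41 windows of 26 members it was found in 11 (26.8%), belonging to 10 members, against 11.6% of the 32851 windows in the table. Member windows had a median of 11 CpG, against 7 over the table. The hexamer was searched on both strands as written, and a match is a description of these letters.

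In control cells the 35 imprinted genes together grew to a larger share of the RNA over the course, and the leading genes changed. Their summed level was 1619 ± 174.5, 3383 ± 100.1 and 4379.9 ± 41.7 TPM at days 0, 3 and 5 (SD, n = 3). A wider list of 54 imprinted genes outside the 35 changed less, at 1115 ± 55.5, 1110 ± 18.8 and 1274 ± 37.4 TPM. The paternally expressed members summed to 489 ± 62.5, 964 ± 6.11 and 2575 ± 58.5 TPM at days 0, 3 and 5. The maternally expressed members summed to 1016 ± 147, 1928 ± 111 and 612 ± 13.1 TPM. Most of this maternal sum was Meg3 and Rian, which share 1 locus. Meg3 averaged 545, 1016 and 285 TPM at days 0, 3 and 5, and Rian 340, 752 and 218 TPM. The course of the maternal sum is therefore mainly that of this locus. The noncoding RNAs Meg3, Rian and Mirg made up 59.7, 55.8 and 12.3% of the members' summed TPM at days 0, 3 and 5, and Gnas, Mest and Nnat made up 7.9, 15.8 and 64%. At 1 TPM or more were 22, 27 and 28 of the 35 members at days 0, 3 and 5.

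**Figure D1:**
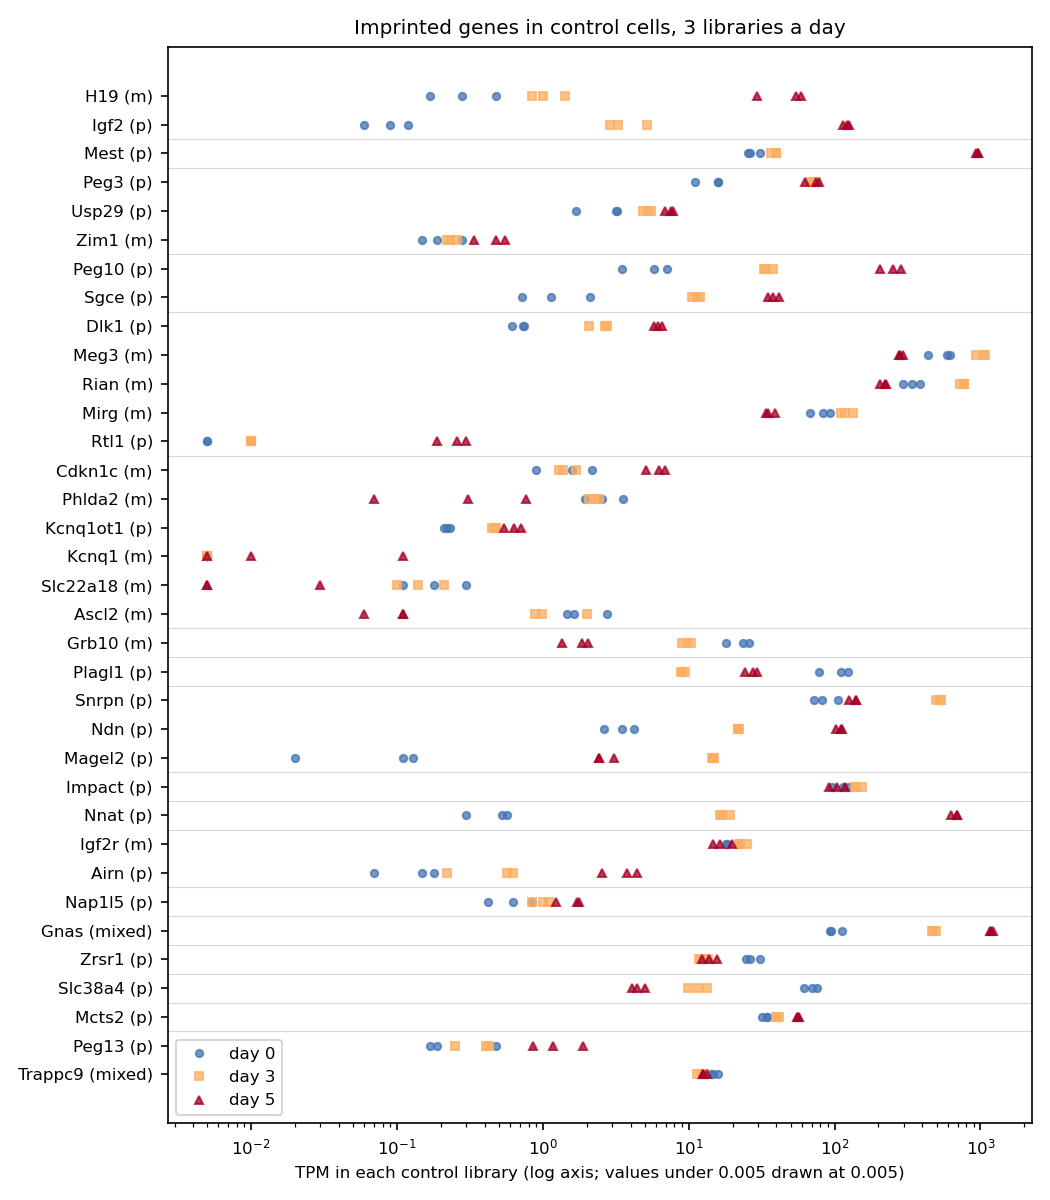
TPM of the 35 members in each of the 3 control libraries per day, on a log axis, grouped by locus, with the expressed allele in brackets (p paternal, m maternal). Nnat, Igf2 and Mest lie far to the right at day 5, whereas Meg3, Rian and Mirg lie highest at day 3 and lowest at day 5.

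Between day 0 and day 3 in control cells, 20 members rose, 6 fell and 7 did not pass the test, so that 78.8% of the 33 tested were called, against 73.5% of all 17795 genes tested (37.2% higher and 36.3% lower). The median log2 fold change was 0.79 over the members and 0.02 over all genes. Of the 21 paternally expressed members 15 rose and 3 fell, and of the 10 tested maternally expressed members 4 rose and 2 fell. Between day 3 and day 5, 16 members rose, 11 fell and 6 did not pass, against 64.8% of all genes called (31.7% higher and 33.1% lower). In that step 13 paternally expressed members rose and 4 fell, and 2 maternally expressed members rose and 7 fell. At day 5, set against day 0, 21 members were higher and 12 lower, so that all 33 were called, against 79.2% of all genes (38.9% higher and 40.3% lower). The day 5 libraries of 20 members lay wholly above those of day 0 and those of 12 wholly below, against 39.1 and 40% of all genes. The difference between the allele classes was not tested. With library size alone as scaling, the median of all genes shifted by 0.15 at day 3 and 0.17 at day 5, both against day 0, and no called member changed sign under any alternative.

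At the Dlk1-Meg3 locus on chromosome 12, the maternally expressed noncoding RNAs rose and then fell, whereas the paternally expressed coding genes Dlk1 and Rtl1 were highest at day 5. Meg3, a noncoding RNA that represses the paternal genes of the locus in mouse, was measured at 403, 504 and 542 CPM in day 0 control cells, 861, 907 and 951 CPM at day 3 and 219, 217 and 216 CPM at day 5. All day 3 libraries lay above all day 0 libraries, and all day 5 libraries lay below both. Its log2 fold change was 0.91 ± 0.10 (SE) at day 3 against day 0 (edgeR adjusted p = 1.16e-07) and -2.06 ± 0.10 at day 5 against day 3 (edgeR adjusted p = 2.17e-12). Rian, which carries small nucleolar RNAs, averaged 475 ± 64.8, 935 ± 39.1 and 257 ± 6.57 CPM (SD, n = 3) at days 0, 3 and 5. Mirg, the host of a large miRNA cluster, averaged 46.9 ± 8.97, 63.7 ± 6.13 and 18.2 ± 1.22 CPM. Both rose and then fell by the test, as Meg3 did. Dlk1, a transmembrane protein with EGF repeats that inhibits fat cell differentiation, averaged 0.678 ± 0.125, 2.52 ± 0.265 and 5.52 ± 0.657 CPM and rose at each step, while its level in TPM stayed far below that of Meg3 (6.19 ± 0.425 TPM and 285 ± 10.1 TPM at day 5). Rtl1, a retrotransposon-derived gene needed for placental capillaries, had at most 1 count in a control library at days 0 and 3 and was measured at 1.05, 0.824 and 1.26 CPM in day 5 control cells.

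**Figure D2:**
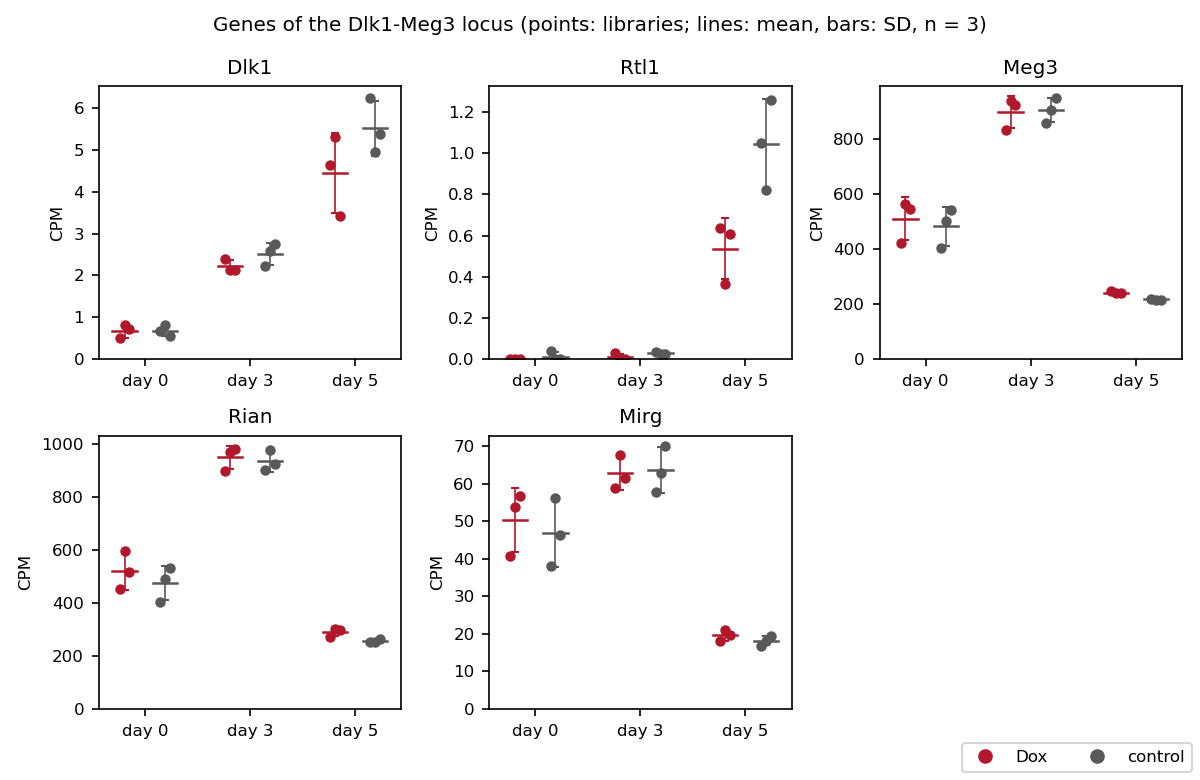
CPM of the 5 members of the Dlk1-Meg3 locus in every library, with Dox to the left of control at each day, and with lines for the mean and bars for the SD (n = 3). Meg3, Rian and Mirg peak at day 3 in both treatments, and Dlk1 and Rtl1 are highest at day 5.

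The miRNAs of this locus were not measured by these libraries, but their sequences show how its strands oppose each other. RefSeq places 11 mature miRNAs within the span of Rtl1 (chromosome 12, 109589193 to 109600330, minus strand) on the opposite strand. Their hairpins overlap Rtl1 exons, so it follows from position that the complement of each of the 11 lies in full in an annotated Rtl1 transcript. In mouse, several of them are known to be made from the maternal strand and to cleave the Rtl1 mRNA. The 5 below, with the seed (bases 2 to 8) in capitals, show this opposition for Rtl1. Whether these miRNAs bear on the level of Rtl1 in these cells was not tested.
mmu-miR-127-3p (chr12:109592888-109592909, plus strand): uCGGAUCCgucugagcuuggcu
mmu-miR-136-5p (chr12:109595331-109595352, plus strand): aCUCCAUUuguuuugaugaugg
mmu-miR-431-5p (chr12:109590459-109590479, plus strand): uGUCUUGCaggccgucaugca
mmu-miR-433-3p (chr12:109591781-109591802, plus strand): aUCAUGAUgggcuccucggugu
mmu-miR-434-3p (chr12:109594565-109594586, plus strand): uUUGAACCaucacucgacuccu
None of these 5 share a seed. In the spans of Mirg, Rian and Meg3, RefSeq places 26, 6 and 3 mature miRNAs on the gene's own strand.

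At Igf2-H19 on chromosome 7, both genes were low in stem cells, with 2 to 9 counts of Igf2 and 3 to 18 of H19 per control library, and rose in each step. Igf2, the fetal growth factor, had 0.078, 0.156 and 0.337 CPM in day 0 control cells, 7.44, 5.5 and 4.99 CPM at day 3 and 175, 173 and 167 CPM at day 5. H19, a maternally expressed noncoding RNA that hosts miR-675, had 0.468, 0.0935 and 0.674 CPM at day 0, 0.996, 1.49 and 1.84 CPM at day 3 and 37.8, 80 and 72.4 CPM at day 5. Neither gene's libraries overlap between days. At day 5 against day 3, the log2 fold change was 4.86 ± 0.18 (SE) for Igf2 and 5.43 ± 0.35 for H19 (edgeR adjusted p = 3.03e-14 and 9.57e-11). The day 3 call of H19 was lost in limma-voom (adjusted p = 0.13) and without day 0 control replicate 2 (edgeR adjusted p = 0.079). Igf2r, the maternally expressed receptor that takes IGF2 up for degradation, averaged 134 ± 15.1, 143 ± 6.85 and 98 ± 11.8 CPM and fell at day 5. Airn, the paternally expressed antisense RNA that silences the paternal Igf2r allele, averaged 0.0566 ± 0.0319, 0.289 ± 0.139 and 2.05 ± 0.526 CPM and rose in each step. It had only 1, 3 and 1 counts in the day 0 control libraries and 13, 11 and 6 at day 3. The strand setting of the counting is not given, so whether antisense pairs such as these share reads was not tested.

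Several paternally expressed genes had their highest level at day 5. Nnat, a small membrane protein of the endoplasmic reticulum of neural cells, was at 0.429, 0.467 and 0.225 CPM in day 0 control cells, 13.3, 11.7 and 12.5 CPM at day 3 and 402, 475 and 459.9 CPM at day 5. Mest, a membrane enzyme-like protein of mesoderm, was at 48.4, 49.1 and 55.5 CPM at day 0, 60.3, 62.5 and 65.4 CPM at day 3 and 1409, 1462 and 1472 CPM at day 5. Each gene's day 5 libraries lie well above all earlier ones. Mest shares 912 exonic bases with Copg2 on the opposite strand. Peg10, a retrotransposon-derived gene needed for the placenta, and Sgce, a sarcoglycan, start 99 bases apart on opposite strands and rose together. Peg10 averaged 27.9 ± 8.33, 161 ± 9.11 and 1059 ± 135 CPM and Sgce 1.5 ± 0.755, 11.7 ± 0.499 and 37.2 ± 1.53 CPM at days 0, 3 and 5 (SD, n = 3). Gnas, the stimulatory G protein subunit, which has mixed imprinting, averaged 100 ± 11.3, 479 ± 16.7 and 1179.8 ± 30.3 TPM and had the highest level of all members at day 5 in control cells. The Gnas gene overlaps Nespas and Gm20721 on the opposite strand.

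At Peg3 on chromosome 7, Peg3, a zinc finger gene, averaged 95.7 ± 14.7, 428 ± 15.4 and 404 ± 33.9 CPM, and rose at day 3 with no further call at day 5. Usp29, a deubiquitinase family gene that starts 147 bases from Peg3 on the opposite strand, averaged 8.58 ± 2.08, 14.7 ± 1.32 and 20.2 ± 1.13 CPM and rose in each step. The RefSeq windows of these genes share 263 bases. Their maternally expressed neighbour Zim1, also a zinc finger gene, averaged 0.994 ± 0.191, 1.12 ± 0.232 and 1.54 ± 0.336 CPM and was higher at day 5 than at day 0 (edgeR adjusted p = 0.0412), although neither step passed the test.

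At Snrpn-Ndn, the region lost in Prader-Willi syndrome in human, the genes did not share 1 course. Snrpn, a spliceosome protein, averaged 121 ± 21.6, 659.5 ± 37 and 160.1 ± 16.2 CPM and Magel2, a MAGE family gene, averaged 0.321 ± 0.22, 47.2 ± 0.959 and 7.9 ± 1.18 CPM at days 0, 3 and 5. Both were highest at day 3, and both fell at day 5 against day 3. Ndn, also of the MAGE family, averaged 9.67 ± 1.88, 55.5 ± 1.24 and 257 ± 22.3 CPM and rose in each step. Snrpn shares exonic bases with Snurf and Gm38393 on its own strand, so its counts are uncertain.

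In the Kcnq1 domain, the noncoding antisense RNA Kcnq1ot1, which silences the domain in cis, averaged 16.4 ± 1.02, 30.8 ± 1.46 and 39 ± 3.89 CPM and rose at day 3. Of its maternally expressed genes, Cdkn1c, a cyclin-dependent kinase inhibitor, averaged 1.15 ± 0.175, 1.14 ± 0.182 and 5.72 ± 0.436 CPM and rose at day 5. Phlda2, which restrains placental growth, averaged 1.22 ± 0.435, 0.954 ± 0.0835 and 0.096 ± 0.061 CPM and fell at day 5, and Ascl2, a trophoblast transcription factor, averaged 2.23 ± 0.732, 1.06 ± 0.173 and 0.0893 ± 0.0225 CPM and fell in each step. At day 5 the control libraries held only 4, 4 and 1 counts of Phlda2 and 3, 2 and 4 of Ascl2. Thus 1 gene of the 3 tested maternally expressed members rose while the others fell by day 5.

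A smaller set was highest in stem cells. Grb10, an adaptor that restrains insulin and IGF receptors, had 86.9, 70.6 and 84.4 CPM in day 0 control cells, 28.9, 33.3 and 35.6 CPM at day 3 and 5.62, 4.34 and 5.86 CPM at day 5. Plagl1, a zinc finger transcription factor, had 316, 285 and 377 CPM at day 0, 21.8, 26.9 and 28.6 CPM at day 3 and 70.7, 70.5 and 77.8 CPM at day 5. Slc38a4, an amino acid transporter, averaged 191 ± 10.5, 28.3 ± 3.08 and 11.1 ± 0.976 CPM, and fell in each step. Grb10 also fell in each step, and Plagl1 fell at day 3 and rose at day 5, with log2 fold changes of -3.66 ± 0.10 and 1.50 ± 0.10 (SE). Zrsr1, a splicing factor retrogene, averaged 46.6 ± 4.18, 18.6 ± 0.94 and 18 ± 1.23 CPM and fell at day 3. It overlaps Commd1 on the opposite strand.

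Impact, a regulator of translation, averaged 264 ± 8.15, 285 ± 9.94 and 212 ± 10.6 CPM, with a log2 fold change of 0.11 ± 0.05 (SE) at day 3 against day 0, a call lost in 7 of 13 settings, and of -0.43 ± 0.05 at day 5 against day 3. Mcts2, a retrogene of a translation factor, averaged 19.8 ± 0.0793, 21.7 ± 0.585 and 27.8 ± 1.69 CPM and rose at day 5, and whether its reads are shared with its parent Mcts1 was not tested. Trappc9, a subunit of a vesicle tethering complex, averaged 42.7 ± 1.89, 31.4 ± 1.53 and 31.1 ± 0.445 CPM and fell at day 3. Peg13, a noncoding RNA within an intron of Trappc9, averaged 1.02 ± 0.58, 1.2 ± 0.348 and 4 ± 1.66 CPM and rose at day 5. Nap1l5, a nucleosome assembly protein retrogene within Herc3, averaged 0.762 ± 0.286, 1.18 ± 0.152 and 1.73 ± 0.352 CPM and was called higher at day 3, a call lost in 6 of 13 settings. The day 5 call of Usp29 was lost in 4 settings.

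Factors of DNA methylation and imprint maintenance were read over the same days. The list holds enzymes that add or remove DNA methylation beside factors that protect imprints, so its counts are not of protection alone. Of 18 tested factors of DNA methylation and imprint maintenance, 4 rose and 12 fell at day 3 against day 0 in control cells, where 37.2% of all genes rose and 36.3% fell. At day 5 against day 3, 6 rose and 5 fell, where 31.7% of all genes rose and 33.1% fell. Zfp57, which binds the methylated hexamer, averaged 483 ± 34.4, 33.1 ± 1.99 and 26 ± 1.83 CPM and had a log2 fold change of -3.87 ± 0.07 (SE) at day 3 against day 0. The de novo methyltransferase Dnmt3b averaged 107 ± 16.5, 857 ± 28 and 71.7 ± 1.09 CPM, and was called higher at day 3 and lower at day 5 against day 3. A wider list of 42 tested imprinted genes outside the 35 had 20 higher and 16 lower at day 3 and 14 higher and 15 lower at day 5 against day 3, beside 73.5 and 64.8% of all genes called in these steps. Its median log2 fold change at day 5 against day 3 was -0.16, against 0.46 over the 33 members, and this difference was not tested. Peg12, of the Snrpn-Ndn region, was the second most changed of the wider list in that step, at 127 ± 1.83 CPM at day 5 and 5.11 ± 0.449 CPM at day 3.

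At day 0, after 48 h of doxycycline, Mest was lower and no other member was called, so that 3% of the tested members changed, against 1.04% of all genes (0.292% higher and 0.747% lower). Mest (chromosome 6, 30723547 to 30748465, GRCm38) had 36.1, 33.2 and 36.8 CPM in day 0 Dox cells, against 48.4, 49.1 and 55.5 CPM in day 0 control cells. The libraries do not overlap. The difference was -0.53 ± 0.08 (SE) as a log2 fold change, with an edgeR adjusted p of 0.00249. Without Dox replicate 2, the library with the high rRNA share, it was -0.48 with an edgeR adjusted p of 0.02. Fitted on the 6 libraries of day 0 only, edgeR gave an adjusted p of 0.34 and called 0.0197% of all genes. The median log2 fold change over the members was -0.01, as against -0.001 over all genes, and the libraries of 1 member (Mcts2) lay wholly above their controls and those of 4 (Mest, Plagl1, Impact and Trappc9) wholly below, against 4.59 and 5.64% of all genes.

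Impact, Plagl1 and Peg10 had lower means than the controls at day 0 without reaching the threshold. Impact had 242, 232 and 221 CPM in day 0 Dox cells, against 273, 261 and 258 CPM in day 0 control cells. Plagl1 had 279.5, 249.9 and 266 CPM in day 0 Dox cells, against 316, 285 and 377 CPM in day 0 control cells. Neither gene's groups overlap, with edgeR adjusted p of 0.0762 and 0.133. Impact was called lower with DESeq2 and without Dox replicate 1, and Plagl1 without control replicate 2 and with no filter. Peg10 had 21.4, 14.5 and 22.7 CPM in day 0 Dox cells, against 29.5, 18.9 and 35.3 CPM in day 0 control cells, which overlap although Dox was lower within each replicate number. Its edgeR adjusted p was 0.212, and 0.064 with the replicate block. It was called lower in the 6 libraries of day 0 with the block (adjusted p = 0.038), without control replicate 2 (adjusted p = 0.021) and with no filter. Among the factors of DNA methylation and imprint maintenance, the methyltransferase Dnmt3b was lower. Its log2 fold change was -0.42 ± 0.09 (SE), with an edgeR adjusted p of 0.0214, at 80.1 ± 7.39 CPM in Dox cells and 107 ± 16.5 CPM in control cells.

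At day 3 none of the 33 members was called between Dox and control cells, by edgeR, DESeq2 or limma-voom, and 1 member, Grb10, had an unadjusted p under 0.05. Of all genes 0.0169% were called. The median absolute log2 fold change was 0.06 over the members and 0.06 over all genes. Grb10 was 27.6 ± 2.07 CPM in day 3 Dox cells and 32.6 ± 3.42 CPM in day 3 control cells (SD, n = 3 each), with overlapping libraries. Libraries of 3 members lay wholly below their controls and of 0 wholly above, against 5.46 and 5.66% of all genes. These were Peg3, Peg10 and Magel2. Mest, which differed at day 0, had 62.2, 66.1 and 68.2 CPM in day 3 Dox cells, against 60.3, 62.5 and 65.4 CPM in day 3 control cells, with overlap. Fitted on the 6 libraries of day 3 only, with the replicate block, Peg3, Peg10 and Grb10 were called lower, where 0.621% of all genes were called.

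At day 5, 2 members were higher in Dox cells and 4 lower, which is 18.2% of those tested, against 4.74% of all genes (2.39% higher and 2.34% lower). The lower ones were the growth factor Igf2, the adaptor Grb10, the transcription factor Plagl1 and the placental gene Peg10, and the higher ones were Nnat and Trappc9. By allele, 1 paternally expressed member rose and 3 fell, 1 maternally expressed member fell, and Trappc9, with mixed imprinting, rose. The paternally expressed members summed to 2695 ± 221 TPM in day 5 Dox cells and 2575 ± 58.5 TPM in day 5 control cells (SD, n = 3 each), which overlap. The maternally expressed members summed to 667 ± 33.7 TPM in day 5 Dox cells and 612 ± 13.1 TPM in day 5 control cells, where every Dox library, at 628 to 689 TPM, lay above every control, at 597 to 621 TPM. Most of this sum was Meg3 and Rian, neither of them called. They averaged 312 and 248 TPM in day 5 Dox cells and 285 and 218 TPM in day 5 control cells. Grb10, the maternally expressed member that was called, was lower. The median absolute log2 fold change was 0.22 over the members and 0.12 over all genes, with a signed median of 0.04 and 0.003. The libraries of 9 members lay wholly above their controls and of 9 wholly below, against 13.8 and 12.3% of all genes.

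**Figure D3:**
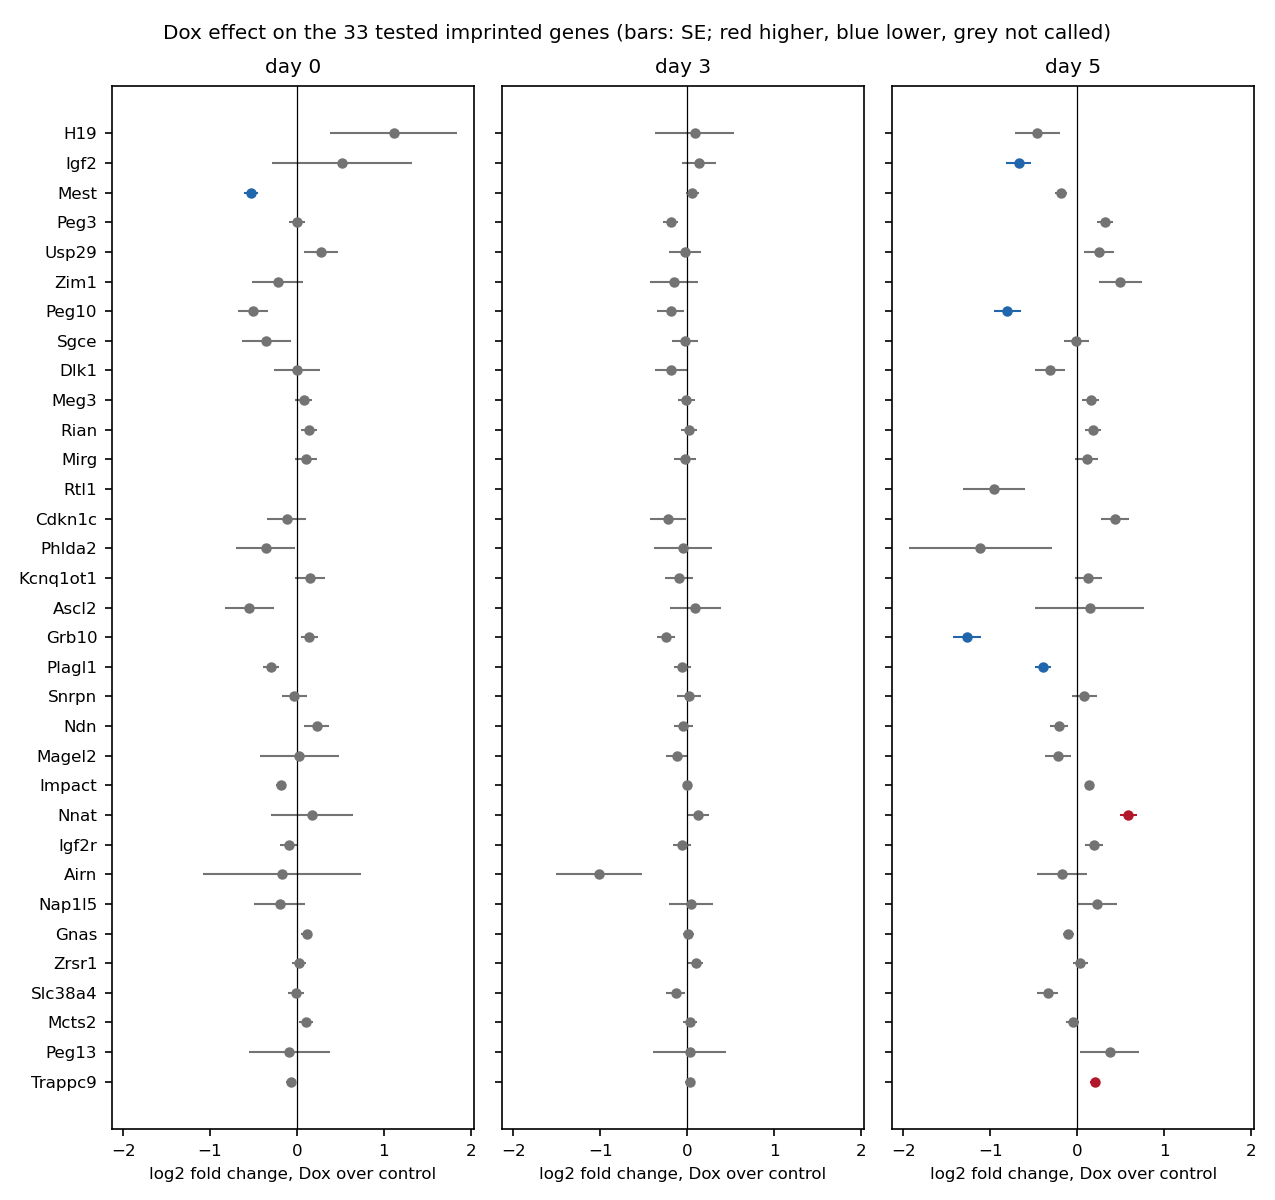
log2 fold change of Dox over control at days 0, 3 and 5 for the 33 tested members, with bars for the SE; Rtl1 is shown at day 5 only, since it was at or near 0 before. Red points were called higher and blue points lower (edgeR adjusted p under 0.05). Mest at day 0 and the 6 members at day 5 are the called points.

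Grb10 was the member with the most negative called difference. The gene (chromosome 11, 11930508 to 12038683, minus strand) had 2.22, 2.41 and 1.96 CPM in day 5 Dox cells, against 5.62, 4.34 and 5.86 CPM in day 5 control cells. All control libraries lay well above all Dox libraries. Its log2 fold change was -1.27 ± 0.16 (SE), with an edgeR adjusted p of 7.8e-05, and the call held in 15 of 15 settings. The level of Grb10 at day 5 was low in both groups, at 0.703 ± 0.0723 TPM in Dox cells and 1.75 ± 0.356 TPM in control cells. Cobl, an actin nucleator that neighbours Grb10 and is listed among the wider imprinted genes, was at 2.1, 1.65 and 2.25 CPM in day 5 Dox cells, against 4.4, 3.64 and 4.53 CPM in day 5 control cells, and was also lower, with a log2 fold change of -1.07 ± 0.17 (SE) and an edgeR adjusted p of 0.000551.

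Peg10 (chromosome 6, 4747306 to 4760517, plus strand) had 625, 583 and 613 CPM in day 5 Dox cells, against 1179, 912 and 1085 CPM in day 5 control cells. All 3 Dox libraries lay below all controls. On the log2 scale the difference was -0.80 ± 0.15 (SE), with an edgeR adjusted p of 0.00328. Its neighbour Sgce, which starts on the opposite strand, was at 35.7, 38.4 and 36.9 CPM in day 5 Dox cells and 39, 36 and 36.7 CPM in day 5 control cells, with overlapping libraries and a log2 fold change of -0.01 ± 0.14 (SE). Whether the Dox effect differs between this pair was not tested.

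Igf2 (chromosome 7, 142650766 to 142666816, minus strand) had 127, 102 and 93.5 CPM in day 5 Dox cells, against 175, 173 and 167 CPM in day 5 control cells. The Dox libraries differ more among themselves than the controls, and all lie below them. The log2 fold change of Igf2 was -0.67 ± 0.14 (SE), with an edgeR adjusted p of 0.00829, which was 0.06 without Dox replicate 2 and 0.085 without Dox replicate 3. H19 had 31.2, 54.8 and 52.5 CPM in day 5 Dox cells, against 37.8, 80 and 72.4 CPM in day 5 control cells, which overlap, with an edgeR adjusted p of 0.414. It was called lower with no filter and in the libraries of day 5 alone with the replicate block. These fits called 3.73 and 17.3% of all genes. Igf2 shares 3596 exonic bases with Gm49394, which is counted separately.

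Plagl1 (chromosome 10, 13060504 to 13131694, plus strand) had 58.3, 55 and 53.1 CPM in day 5 Dox cells, against 70.7, 70.5 and 77.8 CPM in day 5 control cells. The groups do not overlap. Between Dox and control cells the log2 fold change was -0.40 ± 0.09 (SE), with an edgeR adjusted p of 0.0174. Leaving out control replicate 3 gave an edgeR adjusted p of 0.11, and the fits lacking Dox replicate 2 or 3 gave 0.076 and 0.1, none of which is a call.

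Nnat (chromosome 2, 157560078 to 157562522, plus strand) had 541, 729 and 739.7 CPM in day 5 Dox cells, against 402, 475 and 459.9 CPM in day 5 control cells. Dox replicate 1 was lower than the other Dox libraries, and still above the highest control. Its log2 fold change was 0.59 ± 0.10 (SE), with an edgeR adjusted p of 0.0015, and the call held in 15 of 15 settings. Blcap, the gene that contains Nnat in an intron, was not called. Trappc9 (chromosome 15, 72589620 to 73061204, minus strand) had 35.9, 36.3 and 34.9 CPM in day 5 Dox cells, against 31.1, 31.5 and 30.6 CPM in day 5 control cells, without overlap. Its log2 fold change was 0.20 ± 0.06 (SE), with an edgeR adjusted p of 0.049, and the call was lost in 7 of 15 settings, among them each left-out library, with adjusted p of 0.11 to 0.19. Peg13, within it, was 5.22 ± 1.98 CPM in Dox cells and 4 ± 1.66 CPM in control cells (SD, n = 3 each).

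Peg3 fell just outside the threshold. It had 491, 500.2 and 521 CPM in day 5 Dox cells, against 425, 365 and 423 CPM in day 5 control cells, without overlap. Its log2 fold change was 0.32 ± 0.09 (SE), with an edgeR adjusted p of 0.0504, and it was 0.03 with the replicate block, which calls it higher. Peg3 was also called higher with DESeq2, limma-voom, library size alone, no filter and the filter of 1 CPM in 3 libraries. The same held for the libraries of day 5 alone, with or without the block. It was not called with RLE factors or with any day 5 library left out. Members with an unadjusted p under 0.05 and no call were Mest, Peg3, Rtl1, Cdkn1c, Impact and Slc38a4. Rtl1 had 0.639, 0.366 and 0.606 CPM in day 5 Dox cells, against 1.05, 0.824 and 1.26 CPM in day 5 control cells, and Cdkn1c had 6.81, 8.66 and 7.68 CPM in day 5 Dox cells, against 6.2, 5.61 and 5.35 CPM in day 5 control cells. Rtl1 lay wholly below its controls and Cdkn1c wholly above. Meg3 had 242 ± 3.62 CPM in Dox cells and 217 ± 1.54 CPM in control cells (SD, n = 3 each), with a log2 fold change of 0.16 ± 0.10 (SE) and no call. Usp29, Zim1 and Rian, with no call, also lay wholly above their controls, and Ndn, Gnas and Slc38a4, with no call, wholly below. Zim1 had 2.01, 1.98 and 2.51 CPM in day 5 Dox cells, against 1.93, 1.36 and 1.34 CPM in day 5 control cells. Slc38a4 had 9.76, 9.51 and 7.13 CPM in day 5 Dox cells, against 9.96, 11.6 and 11.7 CPM in day 5 control cells. Mest had 1113, 1355 and 1359 CPM in day 5 Dox cells, against 1409, 1462 and 1472 CPM in day 5 control cells, and again lay wholly below, with an edgeR adjusted p of 0.17.

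**Figure D4:**
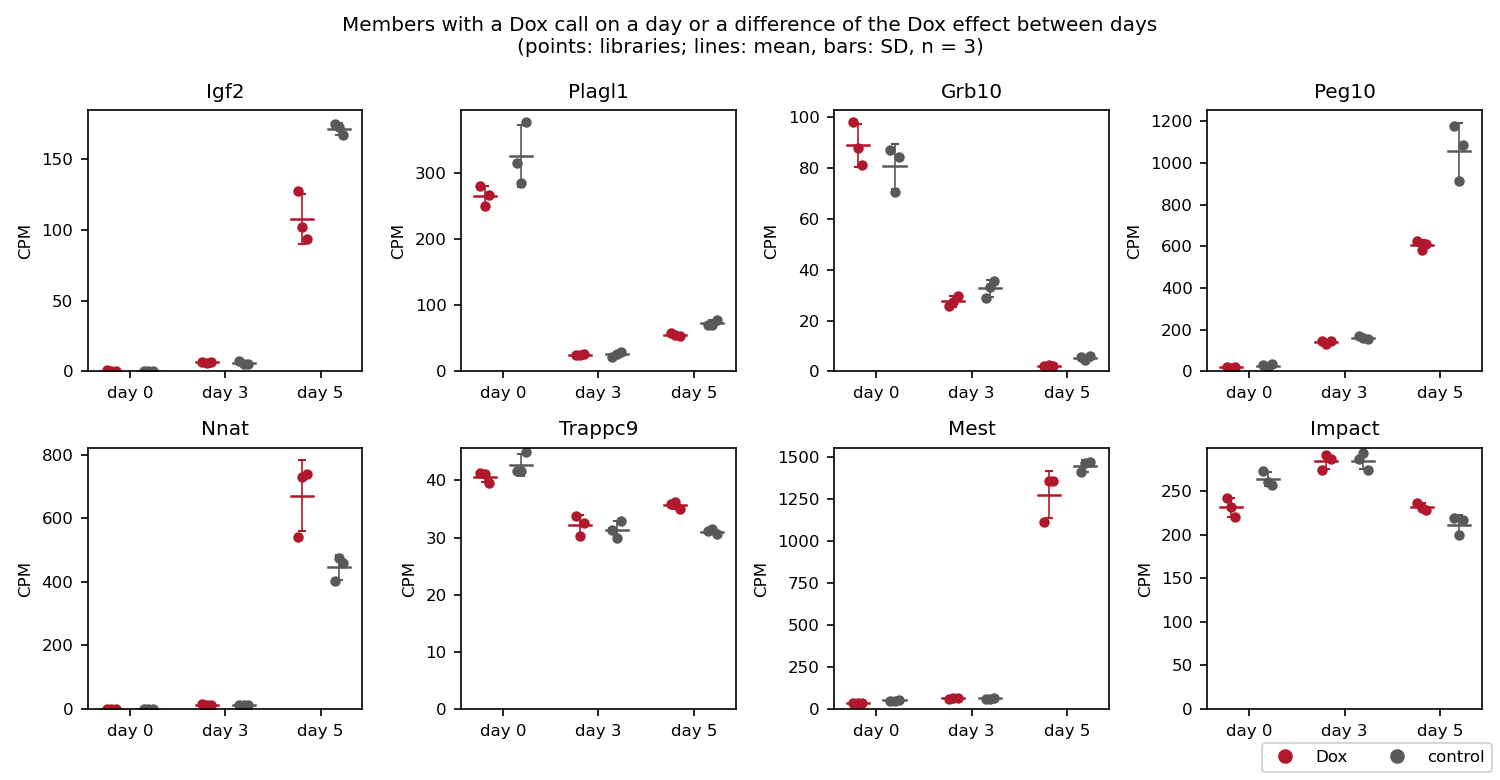
CPM of the 8 members with a Dox call at a day, or with a Dox effect that differed between days, in every library, with Dox to the left of control at each day; lines are means and bars the SD (n = 3). Igf2, Grb10, Peg10 and Plagl1 lie below their controls at day 5 in every library, whereas Nnat and Trappc9 lie above.

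The change of the Dox effect between days was tested as an interaction. The Dox effect on Grb10 differed between day 5 and day 0 by -1.41 ± 0.19 (SE) on the log2 scale (edgeR adjusted p = 0.000394) and between day 5 and day 3 by -1.02 ± 0.19 (edgeR adjusted p = 0.0135). The call against day 3 was lost in limma-voom and without control or Dox replicate 3 of day 5. The Dox effect on Impact differed between day 5 and day 0 by 0.32 ± 0.07 (edgeR adjusted p = 0.0135). The Dox effect on Mest differed between day 3 and day 0 by 0.59 ± 0.11 (edgeR adjusted p = 0.0447), a call lost in 9 of 19 settings. These are 1, 2 and 1 of 33 members for day 3 minus day 0, day 5 minus day 0 and day 5 minus day 3, against 0.0562, 3.28 and 0.82% of all genes. Of all genes 1.76% had a higher effect at day 5 than at day 0, as Impact did, and 1.52% a lower one, as Grb10 did. Likewise 0.0393% had a higher effect at day 3 than at day 0, as Mest did, and 0.466% a lower one at day 5 than at day 3, as Grb10 did. For Igf2, Peg10, Plagl1 and Nnat no difference of the Dox effect between days passed the test in edgeR with all libraries and the filter. For day 5 minus day 3, Igf2 was called with DESeq2, Igf2, Peg10 and Nnat with no filter, and Nnat without day 5 Dox replicate 1. With the replicate block Mest was also called for day 5 minus day 0, at 0.34 (adjusted p = 0.022), and Peg3 for day 5 minus day 3, at 0.51 (adjusted p = 0.047).

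Genes of the IGF pathway were read beside Igf2 and Grb10. Of 16 tested at day 5, none rose and 4 fell in Dox cells, where 2.39% of all genes rose and 2.34% fell. Igfbp2, an IGF binding protein, was at 18.4 ± 4.07 CPM in day 5 Dox cells and 37.3 ± 2.43 CPM in day 5 control cells (SD, n = 3 each), with a log2 fold change of -1.02 ± 0.14 (SE) and an edgeR adjusted p of 0.000223. Igfbp3, another binding protein, had a log2 fold change of -0.76 ± 0.16, Grb7, an adaptor related to Grb10, of -0.62 ± 0.16, and Irs2, an insulin receptor substrate, of -0.52 ± 0.13. No gene of this list was called at day 0 or day 3. The receptor Igf2r was 112 ± 9.14 CPM in day 5 Dox cells and 98 ± 11.8 CPM in day 5 control cells, with no call. Among the 18 factors of DNA methylation and imprint maintenance, Zfp57 alone was called at day 5. It was higher, at 31.3, 34.2 and 34.1 CPM in Dox cells, against 26.1, 27.7 and 24.1 CPM in control cells (edgeR adjusted p = 0.005). Among the 42 wider imprinted genes none was higher and 2 were lower, Cobl and Cd81, the second a tetraspanin with a log2 fold change of -0.20 ± 0.05.

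Some cell type markers were also called at day 5, where 2.39% of all genes rose and 2.34% fell. Of 5 tested somite and presomitic mesoderm markers 2 were lower (Meox1 and Pax1), and the summed level of the 6 listed was 58.8 to 77.8 TPM in day 5 Dox libraries and 85.7 to 98.9 TPM in day 5 control libraries, with Msgn1 at 0 in both. Of 6 neural tube markers Pax7 was higher and Pax6 lower, and the sum was 676 to 718 TPM in Dox libraries and 732.5 to 794 TPM in control libraries. The markers did not move together, with 3 log2 fold changes above 0 and 3 below. Pax6 averaged 165 TPM in Dox and 216 TPM in control cells, and Irx3, not called, 149 and 176 TPM. Sox1, not called, averaged 91.1 TPM in Dox and 75.9 TPM in control cells. Of 4 tested endoderm markers Foxa2 was lower, with a sum over the 5 listed of 4.55 to 7.68 TPM in Dox and 5.78 to 7 TPM in control libraries. Of 7 naive pluripotency markers Nanog was higher and Tbx3 lower, with sums of 4.51 to 7.33 TPM in Dox and 4.67 to 5.4 TPM in control libraries. The part of these shifts in the values of Igf2, Grb10, Plagl1, Peg10 and Nnat was not tested. Visceral endoderm and trophoblast markers, for tissues in which several members are abundant, summed to at most 0.84 and 1.36 TPM in day 5 Dox libraries and 0.91 and 2.21 TPM in day 5 control libraries, with the trophoblast markers Elf5 and Prl3d1 at 0.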

How the data were processed

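RNA was sequenced in 18 libraries, 3 in each of 6 groups, from a stranded mRNA kit per the labels' protocols. Trimmomatic, RSEM 1.3.3, STAR 2.7.10a, DESeq2 1.38.2 and the build GRCm38 appear in the submitters' processing notes, and the annotation release and strand setting are not given in the sources used here. Each deposited table gives RSEM's expected counts, the reads it assigned to each gene with no scaling to depth, per the file headers. The authors also deposited TPM, scaled to transcript length and to a total of 1000000. Expected counts were rounded, since 6.54 to 7.49% of the values in a table were not whole. TPM served for levels between genes and for sums.

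Gene IDs were matched to GENCODE M21, which gave 55141 of 55401 IDs a symbol. The 18 libraries were fitted together in edgeR 4.0.16 (R 4.3.3) with a term per group, TMM factors, filterByExpr (minimum count 10, minimum total 15) and the quasi-likelihood test, with Benjamini-Hochberg adjustment over all 17795 genes tested. A call is an adjusted p under 0.05. CPM are counts per 1000000 of the TMM-scaled library size. Standard errors come from the fold change without a prior count and its F statistic. The script was tested on simulated data.

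The labels' batch field holds the replicate number of each sample. On that ground a replicate block, which pairs the samples by number, was fitted as an alternative. The main fit has no term for the replicate number, so its p-values leave this pairing out. The correlation of the Dox and control deviations from their group means, over genes, was 0.28 to 0.47 for the same number at day 0, 0.005 to 0.109 at day 3 and 0.02 to 0.123 at day 5, and -0.421 to 0.126, -0.098 to 0.04 and -0.154 to 0.061 for different numbers at days 0, 3 and 5. The alternatives were a replicate block, DESeq2 1.42.0, limma-voom (limma 3.58.1), no filter, a filter of 1 CPM in 3 libraries, RLE factors, library size alone, each day's 6 libraries alone, and each library left out in turn. The members, the sorting by expressed allele and the other lists were chosen with earlier results of these data known. All 35 members are named, and from each other list up to 4 called genes with the largest change per comparison. Promoter and miRNA sequences are from RefSeq, build GRCm38.p6, and 26 of the 35 members matched a promoter window.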

Additional observations from a re-analysis of the deposited data

Results flagged for a closer look

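The Dox effect of 3 members differed between days by the interaction test in edgeR, in 4 comparisons on the log2 scale. For Grb10 the difference was -1.41 for day 5 minus day 0 and -1.02 for day 5 minus day 3. For Impact it was 0.32 for day 5 minus day 0, where Dox cells were below control cells at day 0 and above them at day 5, neither of which was called on its own day. For Mest it was 0.59 for day 3 minus day 0. Both calls for day 5 minus day 0 were kept in 19 of 19 settings.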

How the results depend on the processing

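Of the 86 member calls over the 3 control comparisons, 80 were kept in each alternative that tested the gene and none changed sign. Rtl1, with 2 of these calls, was not tested under the filter of 1 CPM. Of the 6 Dox calls at day 5, 3 were kept in each (Peg10, Grb10 and Nnat). With the replicate block Dox against control called 1 member on day 0, 0 on day 3 and 7 on day 5. The shares of all genes called were 1.76, 0.0225 and 5.98%. The block called 26, 27 and 33 for the control comparisons of day 3 with day 0, day 5 with day 3 and day 5 with day 0. Of all genes 74.3, 66.2 and 79.9% were called there. For the differences of the Dox effect (day 3 minus day 0, day 5 minus day 0, day 5 minus day 3) it called 1, 3 and 2. Of all genes 0.197, 4.3 and 1.08% were called there. At day 0 the number called was 2 with DESeq2, 3 with no filter, 0 with that day's libraries alone and 2 with that fit and the block. The same fits called 2.83, 1.77, 0.0197 and 0.899% of all genes. At day 3 the day's libraries alone with the block called 3 members and 0.621% of all genes. At day 5 the day's libraries alone called 11 of 31 tested members and 10.6% of all genes. With the block these libraries gave 18 members and 17.3% of all genes. For day 3 minus day 0, limma-voom and library size alone gave 0, against 0.14 and 0.0674% of all genes. For day 5 minus day 0, DESeq2 gave 4 and no filter 6, against 5.59 and 2.87% of all genes. For day 5 minus day 3, DESeq2 gave 3 and no filter 5, against 1.8 and 1.24% of all genes. The cause of these differences was not tested. Leaving out 1 library gave 1 to 3 members at day 0 (2 without Dox replicate 1, 3 without control replicate 2), 0 to 0 at day 3 and 3 to 5 at day 5 (3 without Dox replicate 2 or 3). Of all genes it called 0.417 to 2.27, 0.011 to 0.0165 and 2.25 to 4.02% at days 0, 3 and 5. It gave 23 to 25, 26 to 28 and 32 to 34 for the control comparisons, and 0 to 1, 2 to 3 and 0 to 2 for the differences of the Dox effect. The shares of all genes were 69.5 to 71, 58.8 to 60.7 and 75.5 to 77% for the control comparisons. For the differences of the Dox effect they were 0.0164 to 0.286, 1.69 to 4.37 and 0.247 to 0.852%. The call for day 3 minus day 0 was lost without day 0 Dox replicate 2 or any day 3 library, and day 5 minus day 3 had 0 calls without day 5 control or Dox replicate 3 and 2 without day 5 Dox replicate 1. Depth limits, among others, H19, Igf2, Magel2, Nnat and Airn at day 0, where libraries hold few counts. The same holds for Rtl1 before day 5 and for Phlda2 and Ascl2 at day 5.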
